A study of Mus musculus with 12 samples.

Results

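The response of primary mouse hepatocytes to a hairpin RNA against TLS was compared between cells that carried the coactivator PGC-1alpha and cells that lacked it. For each of 3 replicate numbers the effect of the hairpin in -/- cells was set against its effect in +/+ cells, as -/- shTLS minus -/- control, less +/+ shTLS minus +/+ control, on the deposited log2 values. A positive difference therefore means that the gene went up more, or down less, in -/- cells. All 12 arrays of the series entered the comparison, and of 41174 probes 24965 were kept, those flagged well above background throughout the 3 arrays of 1 group or more. The hepatocytes came from 3 PGC-1alpha+/+ and 3 PGC-1alpha-/- mice of the C57BL/6 strain. Each mouse gave 1 culture infected with an adenovirus that carried the short hairpin against TLS (shTLS) and 1 culture infected with an adenovirus that carried a control short hairpin, which makes 4 groups of 3 arrays. All 4 groups shared the multiplicity of infection of 5, harvest at 24 h after infection and a medium that held insulin (100 nM) and dexamethasone (100 nM), so the control cells carried virus as well. The labels give neither the age of the mice nor the deleted stretch of the gene.

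PGC-1alpha, encoded by Ppargc1a, does not bind DNA itself. It docks on nuclear receptors and other transcription factors, such as the oestrogen-related receptors, PPAR alpha, HNF4 alpha and FOXO1, and brings histone acetyltransferases and the Mediator complex to their target genes. In the fasted liver it is known for raising gluconeogenesis, fatty acid oxidation, mitochondrial respiration and antioxidant defence. TLS is an RNA-binding protein of the FET family, which acts in transcription and splicing. The comparison addresses whether the response to the hairpin depends on PGC-1alpha.

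The labelled cell type was checked first, and 28 of 31 genes of hepatocyte identity were kept, all 28 of them above background on all 12 arrays. The number of probes well above background ran from 22706, on the +/+ control array of number 2, to 26680. The 75th percentile of the signal was lower on the shTLS array than on the control array of every mouse, by 0.72 to 1.24 on the log2 scale, and this ratio differed between genotypes by -0.02, -0.31 and 0.28 in numbers 1, 2 and 3. The effects below are therefore relative to each array's own distribution. Each number was 1 slide of 4 arrays, and a group sat at 1 fixed place on all slides, so that place and group cannot be told apart. Ppargc1a itself read 9.03, 10.39 and 8.23 in +/+ control cells, 8.56, 10.99 and 8.42 in +/+ shTLS cells, 9.71, 9.40 and 9.04 in -/- control cells and 8.84, 8.91 and 8.67 in -/- shTLS cells (log2 level, numbers 1, 2 and 3). The groups overlapped, and since the deleted stretch is not given, its only probe checks nothing about the genotype. The difference of the effects on it was -0.68 (SE 0.95, 95% interval -2.78 to 1.42, adjusted p = 1.0 by limma).

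Most genes that shTLS moved, moved the same way with and without PGC-1alpha, and no difference between the genotypes passed. Averaged over genotypes, Il6, an inflammatory cytokine, rose by 3.22, Klf2, a Krüppel-like transcription factor, by 2.82 and Rdh12, a retinol dehydrogenase, by 2.04, while Nprl3, a subunit of a complex that restrains mTORC1, fell by 1.86 (log2, called by the test given next). Their effects in -/- minus +/+ cells were -0.63, 1.16, 0.18 and 0.09, and none of these passed. At a Benjamini-Hochberg adjusted p under 0.05 in 1 limma fit of the 4 group means (called, below), 0 of 24965 probes differed (0%), and the smallest adjusted p was 1.0. At an unadjusted p under 0.05 there were 66 probes, 0.264% of those tested, 34 positive and 32 negative. A fit of the 3 differences by replicate number, in which each mouse is its own control, also called 0, with 846 probes (3.39%) at an unadjusted p under 0.05, 375 positive and 471 negative. The same count was 264 with the replicate number as a block and 387 with the mouse as a block, and 0 probes were called with either. The replicate numbers of the labels pair the samples, since the same number marks the same mouse within a genotype. The fit of group means leaves this pairing out. Its median SE of the difference was 0.57, against 0.25 in the fit by number. Its few probes with an unadjusted p under 0.05 therefore do not by themselves show equal effects. The SE, interval and p of a difference given below are from the fit of group means unless said otherwise.

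The effect itself was large in each genotype. In +/+ cells 247 probes were called, 205 higher (0.821%) and 42 lower (0.168%). In -/- cells 193 were called, 184 higher (0.737%) and 9 lower (0.0361%). With the replicate number as a block these counts were 3110 and 1463, and they were 142 and 142 without number 1, 0 and 0 without number 2, and 37 and 26 without number 3. With 1 array left out they lay between 107 and 316 in +/+ and between 99 and 234 in -/- cells, lowest without the +/+ control array of number 1 and the -/- shTLS array of number 2. Of the called probes 172 were called in both genotypes, all in the same direction, which is 69.6% of the +/+ calls and 89.1% of the -/- calls. Of the 75 called in +/+ cells alone, 74 had the same direction in -/- cells, 71 with an unadjusted p under 0.05 there, and in 8 the difference itself had an unadjusted p under 0.05. Of the 21 called in -/- cells alone, all 21 had the same direction in +/+ cells and 19 an unadjusted p under 0.05, and 5 a difference with an unadjusted p under 0.05. Averaged over both genotypes, 1942 probes were called, 1130 higher (4.53%) and 812 lower (3.25%), against 7183 with the replicate block and 719, 148 and 446 without number 1, 2 and 3. Scaling on spike-in probes moved the median effect of all probes to -0.86 in +/+ and -0.80 in -/- cells and gave 14099 calls, 689 higher and 13410 lower. Scaling on the 75th percentile gave 1763 higher and 625 lower, so the split of the effect, and the directions given below, hold relative to the median of the array.

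Over all 24965 probes the effect in -/- cells had a Pearson correlation of 0.876 with the effect in +/+ cells (Spearman's rho 0.857), as a description across probes, which are not independent. Both effects come from arrays of their own, but share slides by number. Each group had its own array position, so the 2 effects do not share positions. With the probes split by mean level into 4 equal sets, the correlation was 0.831 in the dimmest set and 0.907 to 0.918 in the other sets. With no filter on dim probes it was 0.721 over 41174 probes. The direction was the same in 21303 probes (85.3%). In 9483 probes (38.0%) it was the same in all 6 mice, and in 75 probes (0.300%) all 3 +/+ mice went one way and all 3 -/- mice the other. The difference had an SD of 0.42 over probes, its 5th and 95th percentiles were -0.68 and 0.57, and it exceeded 1 in size in 861 probes (3.45%). Of these 861, 671 were in the dimmest set and 11 in the brightest. The 95% interval of the difference lay within -1 to 1 in 3792 probes (15.2%) in the fit of group means and in 15665 (62.7%) in the fit by number. For the remaining probes the interval reached past a 2-fold difference, so that this design does not show equal effects there.

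**Figure D1:**
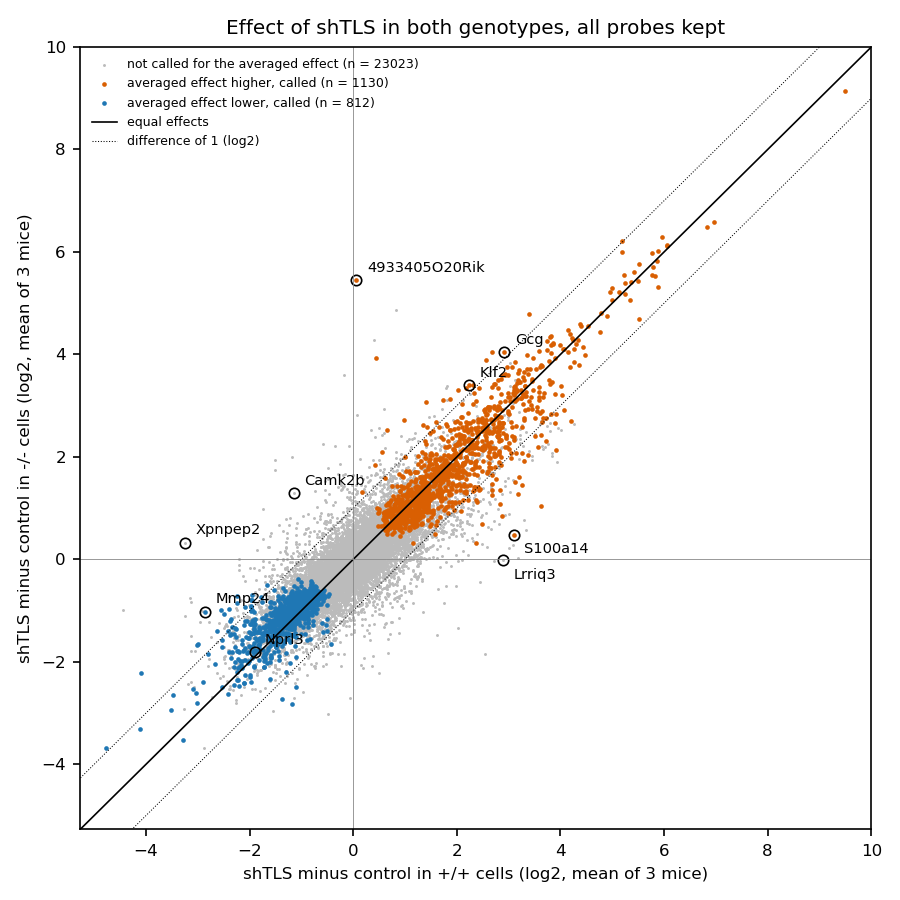
Effect of shTLS in +/+ cells (x axis) against -/- cells (y axis), as log2 means of 3 mice, for the 24965 probes kept. Probes called for the averaged effect are orange (1130 higher) and blue (812 lower), the solid line marks equal effects and the dotted lines a difference of 1. The cloud follows the line (r = 0.876), and the circled genes are some of those named in the text.

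The effect differed more between replicate numbers than between genotypes in 2 of 3 numbers. The effects of the +/+ mouse and the -/- mouse of number 3 correlated at 0.875 and those of number 1 at 0.804. Between different mice of 1 genotype the correlation was 0.499 to 0.684 (6 pairs), and between mice that differed in both genotype and number 0.507 to 0.634 (6 pairs). In number 2 the value was 0.576, within both of these ranges. The root mean square difference between the effects of a number was 0.72, 0.92 and 0.44 in numbers 1, 2 and 3, against 0.75 to 1.13 between mice of 1 genotype. These are descriptions over the same probes, and the 4 arrays of a number share a slide, the assay and the pairing, whose parts were not tested.

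**Figure D2:**
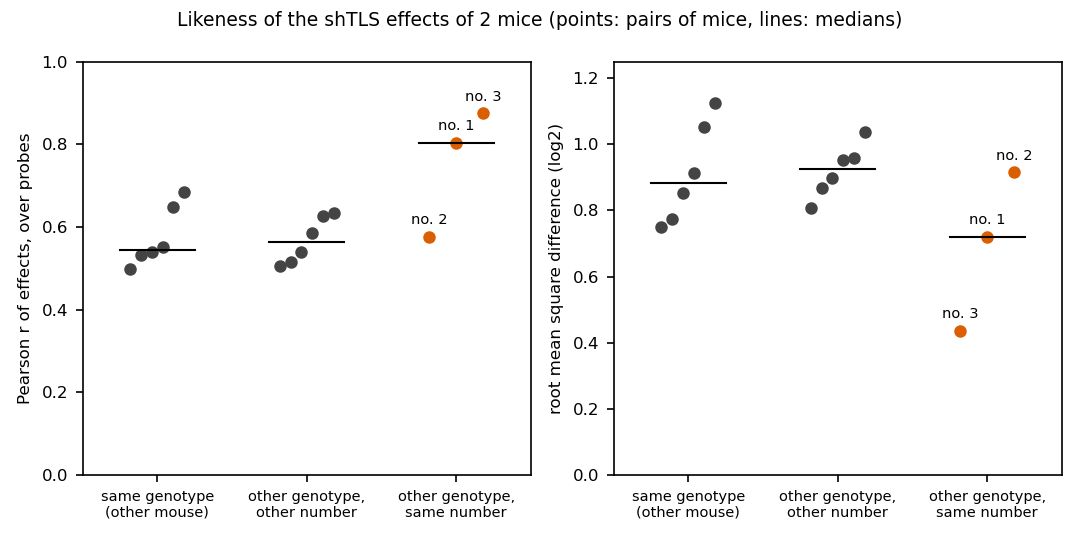
Pearson correlation (left) and root mean square difference in log2 (right) of the shTLS effects of 2 mice over 24965 probes, 1 point per pair of mice, with lines at the medians. Mice of different genotype with the same number (orange) reach 0.804 and 0.875 in numbers 1 and 3, above all 6 pairs of 1 genotype, and 0.576 in number 2.

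The size of the effect was compared next, over the probes called for the averaged effect. All 1942 had the same direction in both genotypes, which the choice by the average favours. The 1130 rises had a median effect of 1.72 in +/+ and 1.63 in -/- cells, with a median difference of -0.06 and 637 of them larger in +/+. The 812 falls had a median effect of -1.23 in +/+ and -1.07 in -/- cells, and 579 of them were larger in +/+. Their median difference of 0.15 was made up of 0.51, -0.12 and 0.08 in numbers 1, 2 and 3. The sign was not the same in every number.

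Genes taken as even in their response were those called for the averaged effect, with 1 direction in all 6 mice and an interval of the difference within -1 to 1. This rule uses the mean difference and does not ask for equal effects in each number. There were 135 such genes with a symbol, 63 higher and 72 lower. Rdh12, a retinol dehydrogenase, rose by 1.95 in +/+ and 2.13 in -/- cells (log2, adjusted p = 0.00313 and 0.00175 by limma). Its level was 9.54, 9.73 and 9.71 in +/+ control and 11.30, 11.64 and 11.88 in +/+ shTLS cells, and 9.75, 9.55 and 9.34 against 11.52, 11.97 and 11.55 in -/- cells. The shTLS arrays lay above the control arrays in both genotypes with no overlap, and the difference was 0.18 (95% interval -0.58 to 0.95). Nprl3, a subunit of the GATOR1 complex that restrains mTORC1, fell by 1.90 in +/+ and by 1.81 in -/- cells (adjusted p = 0.0103 and 0.0138). It read 8.40, 8.50 and 7.85 in +/+ control and 6.42, 6.13 and 6.50 in +/+ shTLS cells, and 8.38, 8.34 and 7.74 against 6.70, 6.22 and 6.12 in -/- cells. Again the vectors did not overlap, and the difference was 0.09 (95% interval -0.81 to 1.00).

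The other rises chosen by this rule were Acr (2.39 averaged over genotypes), the acrosomal protease of sperm, Sprr2b (2.00), a protein of the cornified envelope, Clnk (1.67), an adaptor of immune receptors, Olfr570 (1.62), an olfactory receptor, and Gper1 (1.45), a G protein-coupled oestrogen receptor. Their differences lay between -0.17 and 0.05. Rgs3, a regulator of G protein signalling, rose by 2.09 and Cyren, an inhibitor of end joining, by 1.92 with their brightest probe. For Rgs3 the other 4 kept probes gave -0.26 to -0.81 averaged over genotypes, and for Cyren the other probe gave -0.41, none of them called, so the rise is that of 1 probe. Among the falls, Plpp2, a lipid phosphate phosphatase, fell by 1.38, Gpaa1, a subunit of the GPI transamidase, by 1.04, and Slc38a3, a glutamine transporter of hepatocytes, by 1.04. Cetn2, a centrin, fell by 0.98, and its other kept probe by 0.88. Fbxl6, Tmem131l and Abhd17a fell by 0.97, 0.95 and 0.94. By number the differences could vary more than their mean. They were 0.71, -0.94 and 0.04 for Tmem131l and 0.27, -1.01 and 0.35 for Cetn2, against -0.08, -0.22 and -0.08 for Plpp2. Gper1 and, among the falls, all but Nprl3 and Plpp2 were called only for the average and in neither genotype alone.

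The promoters of Rdh12 and Nprl3 show the start regions of a gene that rose and a gene that fell by similar amounts in both genotypes. They are from RefSeq on GRCm38.p6, 250 bases before to 50 bases after the start, 5′ to 3′ on the gene's strand, and capitals would mark a match to 1 of 4 motifs searched on both strands. The motifs are the oestrogen-related receptor element TCAAGGTCA, through which PGC-1alpha acts, the interferon-stimulated core GAAANNGAA, the sterol regulatory element TCACNCCAC and the antioxidant response core TGACNNNGC. Of all 32851 promoters there, 0.423%, 8.56%, 1.24% and 12.4% hold them, in that order. Rdh12 lies at chr12:79208663-79208962 on the plus strand and Nprl3 at chr11:32267658-32267957 on the minus strand, and neither window holds a match.
Rdh12: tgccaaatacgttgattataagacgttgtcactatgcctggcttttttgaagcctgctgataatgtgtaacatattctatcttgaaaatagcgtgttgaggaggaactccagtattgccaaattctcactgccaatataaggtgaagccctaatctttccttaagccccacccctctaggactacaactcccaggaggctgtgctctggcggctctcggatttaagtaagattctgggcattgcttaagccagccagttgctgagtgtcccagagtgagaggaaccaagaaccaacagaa
Nprl3: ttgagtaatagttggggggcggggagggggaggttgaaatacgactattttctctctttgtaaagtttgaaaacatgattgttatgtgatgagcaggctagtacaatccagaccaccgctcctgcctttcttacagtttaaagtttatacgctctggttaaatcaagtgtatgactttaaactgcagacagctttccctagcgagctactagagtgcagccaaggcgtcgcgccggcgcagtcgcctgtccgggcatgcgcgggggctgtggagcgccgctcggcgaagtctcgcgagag

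The genes with the smallest unadjusted p for the difference are given as the nearest to a genotype-dependent response, and none of them passed (adjusted p = 1.0 each). The same sign in all 3 numbers was required of them, which 23.1% of all probes met. Klf2, a Krüppel-like transcription factor, had the most even difference among the bright genes. Its level was 13.73, 14.16 and 14.30 in +/+ control and 15.74, 16.45 and 16.70 in +/+ shTLS cells, and 13.37, 13.41 and 13.32 in -/- control and 16.63, 16.78 and 16.88 in -/- shTLS cells. It rose in both genotypes (2.24 and 3.40, adjusted p = 0.00313 and 0.000301), and the -/- control arrays lay below all +/+ control arrays. The difference was 1.25, 1.08 and 1.16 in numbers 1, 2 and 3 (mean 1.16, SE 0.40, unadjusted p = 0.0142 by limma). The other kept probe of Klf2, dimmer with a mean level of 10.26, gave -0.32 in +/+ and -0.01 in -/- cells, so the probes disagree on the effect itself.

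Mmp24, a membrane-type matrix metalloproteinase, fell in +/+ cells by at least 2.08-fold (adjusted p = 0.0140), a bound because it was not well above background on any +/+ shTLS array. In the bound the bright group's mean is set against the lowest signal called above background on each dim array. It read 4.19, 5.62 and 3.89 in +/+ control and 1.27, 2.52 and 1.33 in +/+ shTLS cells, and 4.18, 4.13 and 3.78 against 3.19, 2.99 and 2.86 in -/- cells, where the effect of -1.02 was not called (adjusted p = 0.421) and 1 of 3 shTLS arrays was above background. Control levels overlapped between the genotypes. All -/- shTLS arrays read above all +/+ shTLS arrays, but only 1 of these arrays was above background. The difference was 1.92, 1.96 and 1.64, with an unadjusted p of 0.0163 by limma. It rests on readings below background in shTLS cells, so its size is not read here. Gcg, the precursor of glucagon, was not above background on any control array and was on all shTLS arrays, with a rise of at least 1.75-fold in +/+ and 6.53-fold in -/- cells (adjusted p = 0.000877 and 0.000124). Its shTLS levels were 4.07, 4.31 and 4.91 in +/+ and 5.58, 6.29 and 5.72 in -/- cells.

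4933405O20Rik, an uncharacterised cDNA clone, was above background on -/- shTLS arrays and on none of the other 9. It read 3.47, 8.52 and 7.90 there, against 1.07 to 1.21 on the other 9 arrays. In -/- cells that is a rise of at least 11.1-fold (adjusted p = 0.0275), and no fold is given for +/+ cells, where both vectors were below background. The fitted size of its difference depends on the floor of those dim arrays and is not read here. The difference did not pass with all arrays. It was called without the -/- shTLS array of number 1 (adjusted p = 6.21e-05) and without number 1 as a whole (adjusted p = 0.0439), the only difference called under the alternatives run. This probe was kept only through the group in which it is high, so a positive difference was favoured by how it was kept.

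Xpnpep2, a membrane aminopeptidase, was above background on 3 of 3 +/+ control arrays (6.85, 7.46 and 4.70) and on 1 of 3 arrays in each other group, where it read 1.80 to 4.90. Its difference was 3.58 (SE 1.18), a size that rests in part on readings below background, and it too was kept through 1 group. Sncg, gamma-synuclein, and Klk1b27, a kallikrein, were below background on all +/+ arrays and above it on 3 of 3 -/- shTLS arrays, with differences of 1.64 and 1.65. Both sizes depend on the floor of the +/+ arrays and are not read here. In -/- control cells Sncg was above background on 1 of 3 arrays and Klk1b27 on 2 of 3, where Klk1b27 read 4.07, 2.66 and 4.70 on the 3 arrays. Ccr6, a chemokine receptor, had 5.65, 7.25 and 6.95 in -/- shTLS cells against 3.58, 4.49 and 5.63 in +/+ shTLS cells, with a difference of 1.89 that was 0.38 in number 3. Sncg, Klk1b27 and Ccr6 passed the filter on dim probes only through the -/- shTLS group, in which they are high, so a difference of this sign was favoured by how they were kept. Mark4, a microtubule affinity-regulating kinase, and Ccdc173 were above background on all arrays, with differences of 1.02 and 1.14.

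Among negative differences, Kcnab2, a potassium channel subunit, had 3.80, 2.81 and 3.05 in +/+ control and 4.42, 4.50 and 4.24 in +/+ shTLS cells, and 4.15, 4.92 and 3.73 against 4.24, 3.90 and 3.70 in -/- cells. It was above background on 1 of 3 +/+ control arrays, so the level there is at or near the floor. The vectors did not overlap in +/+ cells and overlapped in -/- cells, and the difference was -1.49 (SE 0.50, unadjusted p = 0.0126). Slc13a4, a sulfate transporter, was higher in -/- control cells (6.87, 6.39 and 6.70) than in +/+ control cells (5.86, 5.76 and 5.24). With shTLS it read 5.19, 5.27 and 4.53 in -/- and 4.97, 6.01 and 4.58 in +/+ cells, which overlap, so the difference of -1.23 (SE 0.54) goes with the control levels. Cpne5, a copine, read 7.40, 7.39 and 6.92 in +/+ control and 9.26, 8.50 and 8.70 in +/+ shTLS cells, which did not pass (adjusted p = 0.0628), and its difference was -1.10. Cd74, the invariant chain of class II antigen presentation, had a difference of -1.07, with 4.90, 5.50 and 5.09 in +/+ control and 6.08, 6.39 and 5.53 in -/- control cells. The differences of S100a14 (-2.61), Syt6 (-2.88), Lrriq3 (-2.90), 1700029F12Rik (-1.95), Olfr223 (-1.22) and Snord35b (-1.33) ranged widely by number, from -6.92 to -0.26 in Lrriq3. Of these 6 genes Snord35b alone was above background on every array. Olfr223 and 1700029F12Rik passed the filter on dim probes only through the +/+ shTLS group, in which they are high. A negative difference was favoured by how these genes were kept. Klk1b27, Sprr2b and the olfactory receptors belong to families of similar sequence, whose members the probes may not fully separate. Of the 66 probes with an unadjusted p under 0.05, 52 were below background on at least 1 array and 25 were kept through 1 group, against 1438 of all 24965 kept that way.

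**Figure D3:**
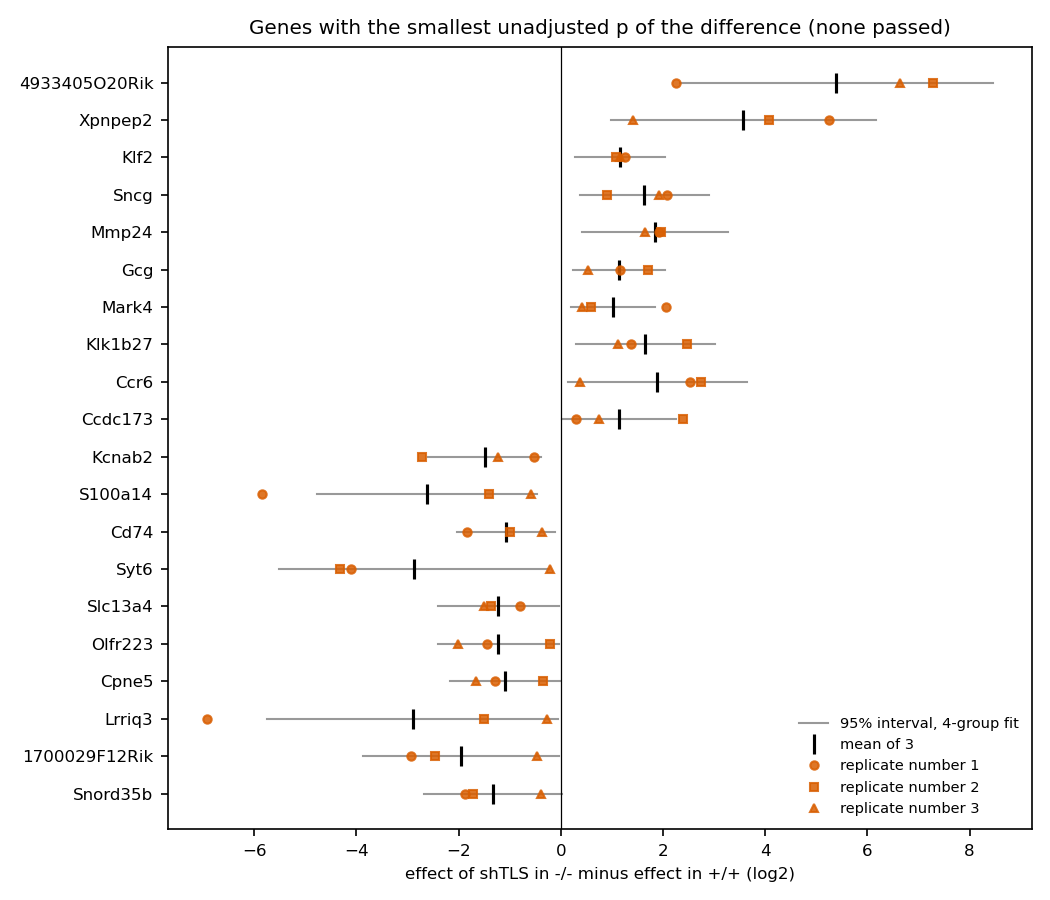
Effect of shTLS in -/- minus +/+ cells (log2) for the 10 positive and 10 negative genes with the smallest unadjusted p and the same sign in all 3 numbers. Symbols are the 3 numbers, ticks their mean and grey lines the 95% interval of the fit of group means. Klf2 and Mmp24 have numbers that nearly coincide, though those of Mmp24 rest in part on readings below background. Lrriq3 runs from -6.92 to -0.26, and no gene passed after adjustment.

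The start regions of Klf2 and Slc13a4 are printed as the first genes by rank in either direction that were above background on all 12 arrays and have 1 listed start, with Cd74 left out on the negative side. Klf2 lies at chr8:72318812-72319111 on the plus strand, with 69.3% G and C, and holds none of the 4 motifs. Slc13a4 lies at chr6:35308077-35308376 on the minus strand and holds 1 interferon-stimulated core in capitals, which starts 229 bases before the gene.
Klf2: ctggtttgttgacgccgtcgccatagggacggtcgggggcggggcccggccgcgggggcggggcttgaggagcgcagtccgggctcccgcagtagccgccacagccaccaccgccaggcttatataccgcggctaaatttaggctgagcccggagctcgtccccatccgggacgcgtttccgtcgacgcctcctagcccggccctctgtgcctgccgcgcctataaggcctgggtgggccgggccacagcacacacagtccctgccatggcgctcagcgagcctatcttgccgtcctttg
Slc13a4: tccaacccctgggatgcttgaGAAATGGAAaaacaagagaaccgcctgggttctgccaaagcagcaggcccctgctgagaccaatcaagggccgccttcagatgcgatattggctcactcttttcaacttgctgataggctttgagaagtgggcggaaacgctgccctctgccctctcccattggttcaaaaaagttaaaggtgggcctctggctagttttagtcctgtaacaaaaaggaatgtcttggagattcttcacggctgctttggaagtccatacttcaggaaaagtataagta

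Opposed effects were rare. Of the 75 probes with one sign in all +/+ mice and the other in all -/- mice, 36 were up and 39 down in -/- cells, 43 had a symbol, and their median difference in size was 0.79. Camk2b, a calcium/calmodulin-dependent kinase, had the largest one among named genes above background on all arrays. It read 9.28, 7.81 and 9.30 in +/+ control and 8.09, 6.57 and 8.31 in +/+ shTLS cells, and 5.60, 4.90 and 7.93 in -/- control and 6.89, 7.27 and 8.15 in -/- shTLS cells. The -/- control arrays of numbers 1 and 2 stood lowest, and the other groups overlapped. The difference was 2.43 (SE 1.09, unadjusted p = 0.0475, adjusted p = 1.0). Lrig1, a negative regulator of growth factor receptors, read 11.70, 12.11 and 12.02 in +/+ control and 12.41, 12.27 and 12.34 in +/+ shTLS cells, and 12.45, 13.09 and 12.54 against 12.34, 12.46 and 12.48 in -/- cells, a difference of -0.66 (SE 0.34). Nedd8, a ubiquitin-like modifier, and Abraxas1, a scaffold of the BRCA1-A complex, had opposed effects of small size (-0.35 and -0.27).

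The lists of genes that PGC-1alpha is known to act on were read next. They are given by their counts and median, beside the median difference of 0.03 over the 12796 genes with a symbol (0.08, 0.01 and -0.00 by number), of which 570 were called higher and 382 lower for the average. With the mouse as a block, which uses the pairing of the cultures, 1949 were called higher and 2148 lower, and over all probes 16.3% higher and 16.5% lower. Both counts are given for each list, and the named calls are those of the fit without a block. For several lists the median difference is also given without number 2, which for all genes was 0.03. Without number 2 the difference was positive in 7059 of the 12796 genes, beside which the list counts are to be read. For the lists only number 2 is left out in this way, and medians without the other numbers are not given. No member of any list was called for the difference.

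Of the coactivators and their partners 28 of 29 genes were kept. Their median effect was 0.01 in +/+ and 0.03 in -/- cells and their median difference -0.05 (0.12, -0.26 and -0.03 by number). Averaged over the genotypes 4 rose and 0 fell, and 8 rose and 5 fell with the mouse as a block. Perm1, a PGC-1-induced regulator of muscle metabolism, had 2.30 in +/+ and 2.33 in -/- cells (averaged 2.32, SE 0.43, adjusted p = 0.0119), and was not above background on any +/+ control array. Esrrg, an oestrogen-related receptor, had 0.97 and 0.92, Gabpb1, a subunit of the nuclear respiratory factor GABP, 0.96 and 0.97, and Tfb2m, a mitochondrial transcription factor, 1.42 and 0.93. These 4 are named because they passed, after their values were seen. The members with the smallest p for the difference were Crebbp, a histone acetyltransferase that PGC-1alpha recruits (0.44, 95% interval -0.53 to 1.40), Ncoa1, a steroid receptor coactivator (0.40), and Nrf1, a regulator of nuclear genes for respiration (0.33).

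For antioxidant and mitochondrial redox defence the median effect was -0.36 in +/+ and -0.27 in -/- cells over 32 of 33 genes, and the median difference 0.03. Txnrd2, the mitochondrial thioredoxin reductase, was the 1 member called for the average without a block, while 1 rose and 13 fell with the mouse as a block. It read 8.70, 8.36 and 7.98 in +/+ control and 6.87, 7.31 and 7.13 in +/+ shTLS cells, and 8.27, 7.81 and 7.60 in -/- control and 6.88 to 7.14 in -/- shTLS cells. The vectors did not overlap in either genotype, and it fell by 1.07 (adjusted p = 0.0108), with a difference of 0.36 (95% interval -0.50 to 1.21). Gpx1, a glutathione peroxidase, and Keap1, the inhibitor of NRF2, had differences of 0.34 each. All 32 differences of this list lay between -0.30 and 0.44.

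Gluconeogenesis had a median effect of -0.33 in +/+ and -0.21 in -/- cells over 21 of 22 genes, with a median difference of 0.05. Pck2, the mitochondrial PEP carboxykinase, read 12.89, 12.67 and 12.55 in +/+ control and 11.78, 11.82 and 11.26 in +/+ shTLS cells, while the -/- control arrays reached 12.38 and the -/- shTLS arrays read 12.19, 11.91 and 11.17. It was lower on every +/+ shTLS array than on every +/+ control array and overlapped in -/- cells, and the difference of 0.69 did not pass (SE 0.43, unadjusted p = 0.135). G6pc, the catalytic subunit of glucose-6-phosphatase, moved by -3.46, 0.35 and 2.42 in the +/+ mice and by -1.63, 0.95 and 3.00 in the -/- mice, in the same order of numbers. The spread of these effects over numbers was larger than the difference of 1.00 (SE 1.36). The difference itself was 1.83, 0.60 and 0.58 in numbers 1, 2 and 3. In the fit by number its SE was 0.33 and its unadjusted p 0.0306 by limma, and it was not called. Slc37a4, the glucose-6-phosphate transporter, had a difference of 0.59 (SE 0.89). G6pc3, a ubiquitous glucose-6-phosphatase, was the 1 member that fell for the average without a block (-1.45, adjusted p = 0.0406). With the mouse as a block 1 rose and 5 fell, Pck2 and Slc37a4 among those that fell. The median difference was 0.17 without number 2.

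Fatty acid oxidation and PPAR alpha targets had a median effect of -0.33 in +/+ and -0.30 in -/- cells over 29 of 30 genes. Their median difference of 0.05 consisted of 0.60, -0.40 and -0.05 by number. Hadh and Acads, enzymes of the beta-oxidation cycle, fell for the average by 1.30 and 1.13 (adjusted p = 0.0266 and 0.0225), with differences of 0.04 and 0.30. With the mouse as a block 2 rose and 7 fell, and without number 2 the median difference was 0.21 with 24 of 29 positive. Cyp4a10, a fatty acid hydroxylase under PPAR alpha, had a difference of -0.84 (SE 0.74), and Fabp1, the liver fatty acid-binding protein, -0.72 (SE 1.07).

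Oxidative phosphorylation showed small differences throughout. All 41 genes were kept, the median effect was -0.09 in +/+ and -0.13 in -/- cells, and the differences ran from -0.28 to 0.27. The interval of the difference lay within -1 to 1 in 29 of 41 genes, against 2338 of 12796 genes with a symbol. These shares are not matched for level. Over all probes the median SE of the difference was 0.76 in the dimmest and 0.46 in the brightest of 4 equal sets. Ndufs1, a core subunit of complex I, had 0.27, Uqcrc1 and Uqcrb, subunits of complex III, 0.27 and -0.28. Atp5k, a subunit of the ATP synthase, was the 1 member that fell for the average without a block (-0.95, adjusted p = 0.0344), and 4 fell with the mouse as a block. The tricarboxylic acid cycle (17 genes) had a median difference of 0.04 and no averaged call without a block, against 1 higher and 1 lower with the mouse as a block, with Dlat (0.35), Idh2 (0.36) and Idh3a (-0.23) at the smallest p. Of the promoters found for the oxidative phosphorylation genes, 2 of 30 hold the oestrogen-related receptor element, against 0.313% of genes with a kept probe.

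The lipid synthesis lists had negative median effects in both genotypes. Cholesterol synthesis and uptake had a median effect of -0.37 in +/+ and -0.65 in -/- cells over 24 of 25 genes, and a median difference of -0.12 (0.25, -0.54 and 0.13 by number). Without number 2 the median was 0.12 with 17 of 24 positive, so its negative sign rests on that number. For the average 6 of 24 fell (1 rose and 10 fell with the mouse as a block), among them Srebf2, the transcription factor of the pathway (-1.35 in +/+, -1.24 in -/-). Tm7sf2, Msmo1 and Hmgcs1, enzymes of sterol synthesis, had differences of -0.39, -0.32 and -0.28. In fatty acid and triglyceride synthesis (19 genes) the median effect was -0.57 in +/+ and -0.60 in -/- cells and 3 fell (11 with the mouse as a block), among them Srebf1 (-0.80 and -0.73). Lpin1, a phosphatidate phosphatase and coactivator, had 0.57 and Fasn, the fatty acid synthase, -0.27. All 19 glutathione transferases kept had negative effects in both genotypes, with medians of -0.70 in +/+ and -0.71 in -/- cells and a median difference of 0.06. Of these 2 fell for the average, and 11 with the mouse as a block.

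**Figure D4:**
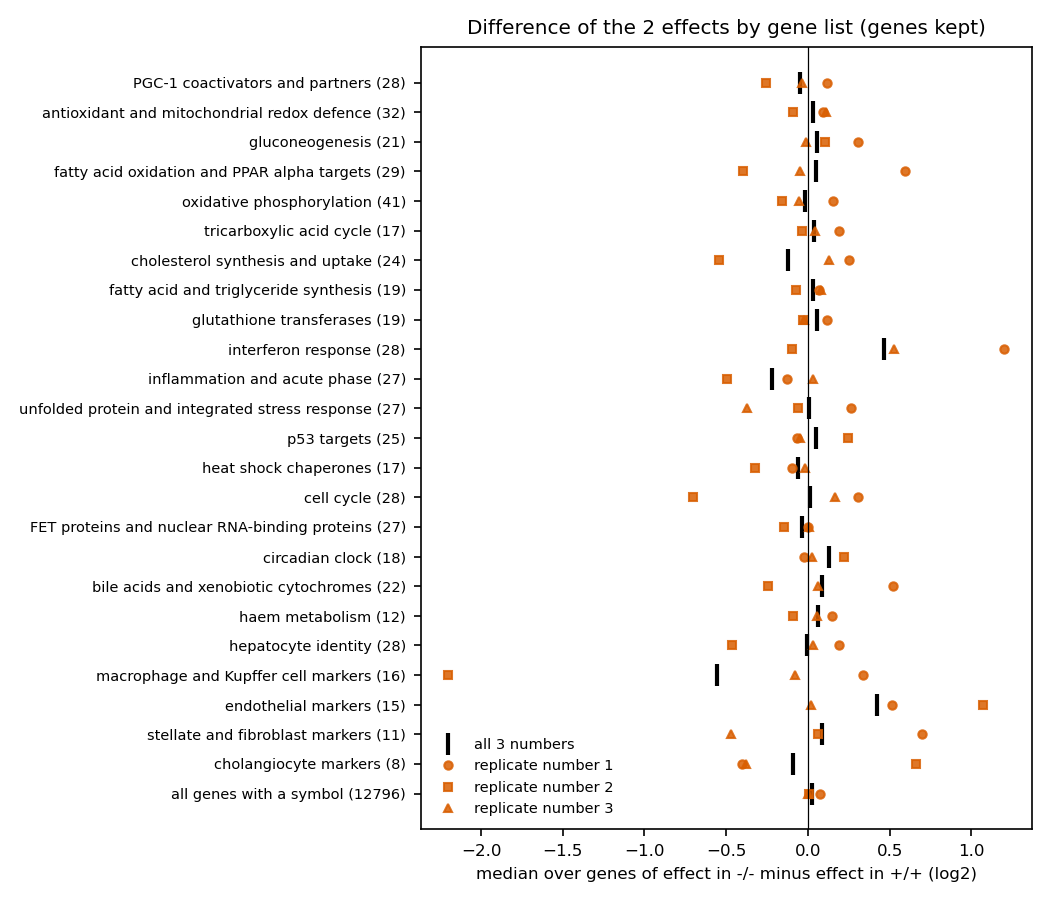
Median over the genes of each list of the effect in -/- minus +/+ cells (log2), by replicate number (symbols) and over all 3 (ticks), for lists with 8 or more genes kept. Most ticks lie near the 0.03 of all genes. The interferon and endothelial lists stand at 0.47 and 0.42, and the macrophage list at -0.56, with number 2 at -2.20.

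The interferon response was the list with the largest positive median difference. The effect was positive in 26 of 28 genes in +/+ and 27 of 28 in -/- cells, with medians of 0.73 and 1.42, and 24 of 28 differences were positive. The median difference of 0.47 consisted of 1.20, -0.10 and 0.53 by number, so number 2 went slightly the other way, and it was 0.84 without that number. In the fit by number 4 of 28 genes had an unadjusted p under 0.05, against 3.39% of all probes, and 0 were called. Irf7, a master regulator of interferon genes, read 9.37, 8.36 and 8.40 in +/+ control and 9.67, 8.73 and 8.33 in +/+ shTLS cells, and 8.21, 8.42 and 8.09 in -/- control and 10.78, 8.94 and 9.15 in -/- shTLS cells. The vectors overlapped in +/+ and not in -/- cells, and the difference was 1.18 (SE 0.72, unadjusted p = 0.132).

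Dhx58, a regulator of viral RNA sensors, had effects of 0.01, -0.69 and -0.39 in +/+ and 1.71, 1.44 and 0.23 in -/- mice, with a difference of 1.48 (SE 1.12). Bst2, the antiviral protein tetherin, had 0.25, 0.33 and 0.16 in +/+ and 1.46, 0.85 and 0.46 in -/- mice, with a difference of 0.67 (SE 0.45). For both, the effect of every -/- mouse lay above that of the +/+ mouse of its number. For the average 9 of 28 rose and 0 fell, and 21 rose and 0 fell with the mouse as a block. Of the 9, named after their values were seen, Rsad2, which encodes viperin, had 2.37 in +/+ and 2.53 in -/- cells (averaged adjusted p = 0.00356). Isg15, a ubiquitin-like modifier, had 2.26 and 2.23, with differences of 1.36, -1.94 and 0.52 by number. Eif2ak2, the RNA-dependent kinase PKR, had 1.41 and 1.51, and Cxcl10, an interferon-induced chemokine, 2.32 and 1.42.

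The start regions of Irf7 and Bst2 were searched for the same motifs, and of these 2 only Bst2 holds the interferon-stimulated core. Of the 22 interferon genes with a RefSeq promoter, 15 hold the interferon-stimulated core (68.2%), against 8.45% of 10231 genes with a kept probe. The list was made of known interferon response genes, so this share describes the list and not the difference of the effects. Irf7 and Bst2 were chosen after their values were seen. Bst2 lies at chr8:71537423-71537722 on the minus strand and holds 2 overlapping matches that start 130 and 124 bases before the gene, in capitals as 1 stretch. Irf7 lies at chr7:141266375-141266674 on the minus strand, and its capitals mark an antioxidant response core on the opposite strand, with no interferon core in this window.
Irf7: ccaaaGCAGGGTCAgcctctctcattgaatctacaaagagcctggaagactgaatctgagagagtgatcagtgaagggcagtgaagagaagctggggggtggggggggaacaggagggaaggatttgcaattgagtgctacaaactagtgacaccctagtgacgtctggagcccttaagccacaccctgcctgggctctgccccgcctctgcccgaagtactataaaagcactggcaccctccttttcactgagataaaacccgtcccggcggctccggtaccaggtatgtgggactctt
Bst2: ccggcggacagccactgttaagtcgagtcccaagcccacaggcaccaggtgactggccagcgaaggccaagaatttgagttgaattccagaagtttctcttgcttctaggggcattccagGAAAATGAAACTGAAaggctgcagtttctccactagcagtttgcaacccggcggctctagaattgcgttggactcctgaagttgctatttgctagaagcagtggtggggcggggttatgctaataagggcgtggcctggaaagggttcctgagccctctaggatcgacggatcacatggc

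Markers of other liver cells had median differences that varied by number, and none of these markers was called for the difference. Of 18 macrophage and Kupffer cell markers 16 were kept, and all 16 had a negative difference, with a median of -0.56. By number the medians were 0.34, -2.20 and -0.08, and without number 2 the median was 0.16 with 14 of 16 positive, so the negative sign rests on number 2. For the average 0 were called without a block, and 8 fell with the mouse as a block. The summed normalized intensity of these markers was 7154 to 18975 in +/+ control, 5813 to 12363 in +/+ shTLS, 12996 to 93085 in -/- control and 8910 to 33880 in -/- shTLS cells. The -/- control cultures of numbers 1 and 2 stood highest, at 74978 and 93085, and shTLS went with 33880 and 12253 in these mice. In number 2 of the +/+ cultures it was 7154 and 5813. Of the 16 markers 11 were above background on all 12 arrays. Lyz2, lysozyme of phagocytes, read 14.22 in the -/- control culture of number 2 and 9.89 to 12.87 on the other 11 arrays. Cd5l, a protein of Kupffer cells, read 11.62 and 6.89 in the control and shTLS cultures of that mouse, and its difference was -1.56 (SE 1.96). In bulk RNA, fewer cells of a type and less RNA per cell cannot be told apart. In number 2 the -/- control culture held the highest macrophage sum, and the median interferon difference was nearest to 0. In number 1 the -/- control sum was 74978, and the median interferon difference was the largest, at 1.20. The part of these cells in the interferon genes was not tested.

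**Figure D5:**
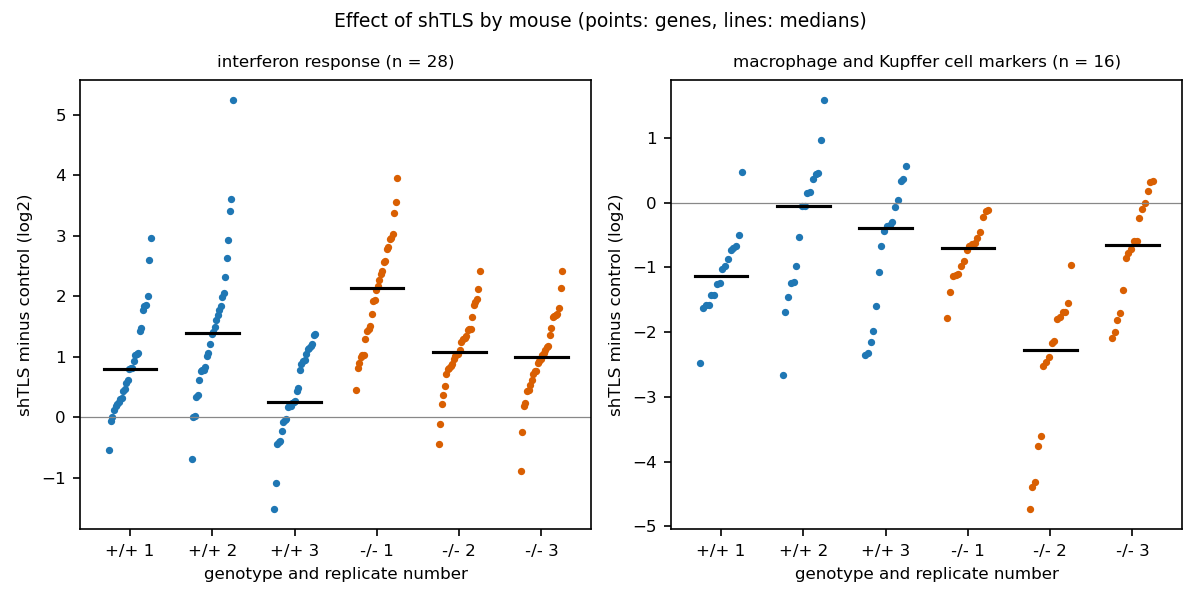
Effect of shTLS (log2) on the 28 interferon response genes (left) and the 16 macrophage and Kupffer cell markers (right) in each mouse, points being genes and lines medians. The interferon medians are 0.81, 1.40 and 0.26 in +/+ and 2.14, 1.08 and 1.00 in -/- mice, and the macrophage median of -/- mouse 2 stands lowest at -2.28.

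Endothelial markers, 12 of 15 above background on all arrays, had a positive difference in 14 of 15 genes, with a median of 0.42 and medians of 0.51, 1.07 and 0.02 by number. Without number 2 the median was 0.24 with 13 of 15 positive. For the average 0 were called, and 2 rose with the mouse as a block. Their summed intensity was 9148 to 13517 and 9601 to 14803 in +/+ control and shTLS cells, and 8078 to 21659 and 11666 to 34660 in -/- control and shTLS cells. Stab2, a scavenger receptor of sinusoids, had a difference of 0.80, Tek, the angiopoietin receptor, 0.69, and Cdh5, the endothelial cadherin, 0.53, none of them called. Stellate cell and fibroblast markers (11 of 14 kept) had a median difference of 0.09, with Reln at 0.73, Vim at 0.30 and Acta2 at -0.13. For the average 1 fell with the mouse as a block. Cholangiocyte markers (8 of 9 kept) had -0.09, which was -0.40, 0.66 and -0.38 by number and -0.40 without number 2, and 4 fell for the average with the mouse as a block, with Krt7 at -0.41, Onecut2 at 0.25 and Cftr at -0.18. Of 10 lymphocyte markers 3 were kept, among them Cd3e at 0.32 and Ptprc at -0.37. Xist was the 1 of 5 sex-linked genes kept, with a difference of -0.42 that was -2.77, 0.97 and 0.54 by number.

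The remaining lists had median differences between -0.22 and 0.13. For the average, the counts with the mouse as a block were 3 higher and 3 lower for inflammation, 12 and 0 for the unfolded protein response, 10 and 1 for p53 targets, 2 and 3 for heat shock, 2 and 7 for the cell cycle, 9 and 2 for nuclear RNA-binding proteins, 8 and 2 for the clock, 1 and 5 for bile acids and xenobiotics, 0 and 1 for haem and 0 and 5 for hepatocyte identity. Inflammation and the acute phase had -0.22 over 27 genes, with Socs3, a feedback inhibitor of cytokine signals, at -0.44, Hp, haptoglobin, at -0.68 (-2.02 in number 2) and Crp at 1.91 (SE 1.85). Crp passed the filter on dim probes only through the +/+ control group, in which it is high, so a positive difference was favoured. Il6, an inflammatory cytokine, rose for the average (adjusted p = 0.00290), with 3.54 in +/+ and 2.91 in -/- cells. Genes of the unfolded protein response and the integrated stress response had 0.00, with Calr, a chaperone of the endoplasmic reticulum, at -0.45, Chac1 at 0.50 and Sel1l at 0.33. The p53 targets had 0.05, with Zmat3 at -0.34, Cdkn1a, the cell cycle inhibitor p21, at 0.30 and Fas at -0.22. Heat shock chaperones had -0.06. Hspa1a, an inducible HSP70 with a near-identical copy, Hspa1b, that the probes may not separate, had a difference of -0.81 and its 3 other kept probes -0.95 to -1.03, all of 1 sign and none called. Its effects were 2.07, 1.40 and 1.01 in +/+ and 0.91, 0.92 and 0.23 in -/- mice.

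Cell cycle genes had a median difference of 0.01, made up of 0.30, -0.70 and 0.16 by number, and 0.29 with 22 of 28 positive without number 2. Knl1, a kinetochore protein, fell for the average (adjusted p = 0.00231), with -1.90 in +/+ and -1.26 in -/- cells, and Cdc25b, a phosphatase that starts mitosis, fell by 2.52 averaged over genotypes with a difference of 0.05. Nuclear RNA-binding proteins had a median difference of -0.04. Srsf5, a splicing factor, had -0.51, Pspc1, a paraspeckle protein, 0.48, and Hnrnph1 -0.41. Rbm3, a cold-inducible RNA-binding protein, rose for the average (adjusted p = 0.0154), with 2.00 in +/+ and 1.44 in -/- cells. Circadian clock genes had 0.13, with Per2 at 0.56 and Arntl at 0.41. Bile acid and xenobiotic genes had 0.08, which was 0.52, -0.25 and 0.06 by number and 0.30 with 20 of 22 positive without number 2, with Cyp7b1 at 0.52, Cyp1a2 at -0.41 and Abcb11, the bile salt export pump, at 0.63. Haem metabolism had 0.06 and hepatocyte identity -0.01, with Uros at -0.49 in the former and Ass1, an enzyme of the urea cycle, at 0.28 in the latter.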

How the data were processed

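Total RNA of 12 cultures was labelled with Cy3 and hybridized to 1-colour Agilent G4122F whole mouse genome arrays. Per the submitters' processing notes, images were read with Agilent Feature Extraction 10.1.1.1, and limma is named without a version. Values of the deposited table are log2, after the authors raised signals under 1 to 1 and quantile-normalized the arrays. The processed signal of each spot, an intensity per the file headers, was deposited with flags in a file per array. These files served for background calls and alternatives, and recomputed values correlated with the table at 0.99997 or more per array. A probe was above background on an array if at least 0.5 of its spots were flagged so.

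Tests used limma 3.58.1 in R 4.3.3, 1 fit of the 4 group means to 12 arrays without a block (8 residual degrees of freedom), two-sided, with Benjamini-Hochberg adjustment over 24965 probes. A gene is its brightest kept probe. Symbols came through accessions from RefSeq GRCm38.p6 (24375 of 41174 probes matched), used for names, since the array files name another build. The source names give the same mouse and assay for a number. Deviations from group means correlated at 0.216 to 0.670 where arrays shared a number and at -0.552 to 0.104 where they did not. Alternatives were the replicate number and the mouse as blocks, other normalizations, background and filters, and each array or number left out. The fits without a block and with either block were tested on simulated data. The simulated noise was independent between arrays, so it did not hold the pairing, and the fit by number was not tested in this way.

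Named are Ppargc1a; by rule, 10 positive and 10 negative differences with the same sign in all numbers, filled by smallest unadjusted p; 8 even rises and 8 falls; 5 opposed effects per direction; and up to 3 members per list of smallest unadjusted p, where the rule allowed 4. Others are said to be chosen after their values were seen, or passed the averaged test as the text states. The lists and members were chosen with earlier results of these data known. The level of the hairpin's target and of some list members is not reported here. The number of arrays limits the precision, and the main fit leaves the pairing out.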

Additional observations from a re-analysis of the deposited data

Results flagged for a closer look

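In 11 named genes every +/+ mouse moved one way and every -/- mouse the other, and the test of the difference itself did not pass in any of them (adjusted p = 1.0 by limma). The differences, -/- minus +/+ on the log2 scale, were 1.64 for Sncg, 2.43 for Camk2b, 1.80 for Olfr1339, 1.56 for Pcdhb5, 0.87 for Arhgap29 and 0.44 for Crebbp. On the negative side they were -0.66 for Lrig1, -1.21 for Tex19.2, -0.70 for Rassf6, -0.35 for Nedd8 and -0.27 for Abraxas1. Of these, 10 were chosen for this pattern, as the genes of smallest unadjusted p among the 75 opposed probes (0.300% of those kept). Sncg was below background on all +/+ arrays, so its direction there is not read. It passed the filter only through the -/- shTLS group, in which it is high. Olfr1339, Pcdhb5 and Tex19.2 were below background on some arrays. Several genes moved little in single mice, so the pattern rests there on small values. Olfr1339 moved by as little as -0.09 in a +/+ mouse and 0.06 in a -/- mouse. In a +/+ mouse Pcdhb5 moved by -0.09, Crebbp by -0.03 and Tex19.2 by 0.04. In a -/- mouse Rassf6 moved by -0.01 and Arhgap29 by 0.05. The difference of Arhgap29 was 2.21 in number 2 and at most 0.28 in the other numbers. The other kept probe of Arhgap29 gave a difference of 0.54, and that of Abraxas1 gave 0.02. Groups of 3 arrays are too small for a search for outlying arrays.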

How the results depend on the processing

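The absence of a called difference held with 0 calls under every block, normalization, background, filter and prior tried, and 0 to 1 calls with an array or number left out. The correlation of the effects ranged from 0.752 to 0.882 with arrays or numbers left out, and was 0.721 over 41174 probes with no filter on dim probes. The counts of called effects in +/+, -/- and averaged were 3110, 1463 and 7183 with the replicate block, which pairs the samples, and 3942, 2006 and 8196 with the mouse as a block. All 247, 193 and 1942 probes called without a block were also called with either, and the blocks changed no call of the difference. Spike-in scaling gave 6320, 310 and 14099, the normexp background 132, 117 and 1562, probes above background on all 12 arrays 116, 96 and 1313, and 75th percentile scaling 382, 282 and 2388. With arrays or numbers left out the counts ranged from 0 to 316, 0 to 234 and 148 to 2421. The cause was not tested, beyond the fewer arrays or probes of some settings. Among named genes the difference of Cftr was 0.04 with normexp, against a small negative value. Genes named for their even response were followed by their averaged effect, not their difference. Among the others the sign turned in these with arrays or numbers left out. The difference ranged from -1.27 to 0.15 for Ppargc1a, -0.12 to 0.75 for Acads, -0.52 to 0.06 for Hmgcs1, -0.08 to 0.96 for Thrsp, -0.02 to 0.91 for Gstm2, -0.18 to 0.79 for Gstm4, -0.46 to 0.03 for Fas and -0.85 to 0.31 for Bub1b. It ranged from -0.86 to 0.01 for Cyp1a2, -0.01 to 0.70 for Fech, -0.01 to 0.53 for Ass1, -0.77 to 0.10 for Prox1, -2.81 to 0.10 for Cd5l, -0.10 to 1.12 for Cdh5, -0.29 to 1.45 for Reln, -0.02 to 0.74 for Vim and -0.34 to 0.17 for Acta2. For Krt7 it was -1.32 to 0.38, for Onecut2 -0.43 to 0.86, for Cftr -0.99 to 0.45, for Ptprc -1.39 to 0.32 and for Xist -1.11 to 0.76. The averaged effects of Tmem131l, Abhd17a and Cetn2 lost their call in 9, 7 and 5 settings. Low signal over background limits the dim probes, since 671 of the 861 differences over 1 in size lay in the dimmest of 4 equal sets.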

Other observations

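Genes that moved under shTLS in both genotypes, and belong to lists with no called difference, are given here after their values were seen. Of 25 p53 targets 3 rose for the average and 0 fell (10 and 1 with the mouse as a block). Bbc3, the cell death factor PUMA, had 1.01 in +/+ and 0.86 in -/- cells (log2, averaged adjusted p = 0.0140 by limma), Plk2, a kinase of the stress response, 0.99 and 0.99, and Polk, a translesion polymerase, 1.02 and 1.24. Of 17 heat shock genes 2 fell and 0 rose (3 and 2 with the mouse as a block), Hsf1, the transcription factor of the response, with -0.83 in either genotype, and Hspb1, a small chaperone, with -0.97 and -0.73. Nr1i3, the xenobiotic receptor CAR, rose with 2.12 and 1.75 (averaged adjusted p = 0.00752), the 1 of 22 bile acid and xenobiotic genes called without a block (1 rose and 5 fell with the mouse as a block). Cebpa, a transcription factor of hepatocyte identity, fell with -0.95 and -1.17. Among nuclear RNA-binding proteins the splicing factors Srsf2 and Srsf7 rose with 1.20 and 0.81 and with 1.13 and 0.77, and Hnrnpa3 fell with -1.21 and -1.04. Ccl5, a chemokine, rose with 3.06 and 2.59 (averaged adjusted p = 0.00392).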
